A study of Homo sapiens with 6 samples.

Results

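Ephrins and EPH receptors were followed as a family of 10 genes, 6 receptor genes (EPHA1, EPHA2, EPHA4, EPHB2, EPHB3 and EPHB4) and 4 ligand genes (EFNA1, EFNA4, EFNB1 and EFNB2), in an established human lung cancer line, NCI-H292, which derives from a mucoepidermoid tumour. The members were taken by gene symbol from the 60027 genes of the expression table, and each symbol had 1 row. The 6 libraries were 3 from cells with a knockdown of the long noncoding RNA SH3PXD2A-AS1 and 3 from cells labelled as negative control, which the series text calls a vector control, and the comparison asks which messages differ when that RNA is targeted. All came from this 1 line, and the labels give neither the knockdown reagent nor the time after it was applied. They also do not say whether libraries of a group were separate cultures, so p-values measure the spread between libraries, which may be technical. Levels are in TPM, a measure of transcript number that is scaled to gene length and to the same total in each library and so allows genes to be compared, and the depth of the libraries is unknown.

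EPH receptors are receptor tyrosine kinases that bind ephrins on the surface of a neighbouring cell, so the pathway reports contact between cells. A-type ephrins are held in the membrane by a lipid anchor and mostly bind EPHA receptors, while B-type ephrins span the membrane and mostly bind EPHB receptors. Signals run forward into the cell with the receptor and in reverse into the cell with the ephrin, and in epithelia they bear on junctions, cell sorting and migration.

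The target of the knockdown overlapped between the groups. SH3PXD2A-AS1 was measured at 0.96, 0.75 and 0.51 TPM in the control libraries and at 0.37, 0.68 and 0.44 TPM in the knockdown libraries, and knockdown replicate 2 lay among the control libraries (exact two-sided permutation test p = 0.2, where 0.1 is the smallest p possible). Directions below are therefore those of libraries labelled knockdown. All 5 epithelial markers (EPCAM, CDH1, KRT7, KRT8 and KRT18) were present, with a summed level of 2937 to 3037 TPM in control and 3282 to 3350 TPM in knockdown libraries. Of 5 fibroblast markers 1 reached a mean of 1 TPM, and the list summed to 20.0 to 22.7 TPM in control and 23.2 to 27.0 TPM in knockdown libraries. Of 4 endothelial markers 1 reached that level, and the highest sums were 1.95 TPM over the control and 1.87 TPM over the knockdown libraries. Of 5 leukocyte markers 2 did, with sums of 38.1 to 43.7 and 57.3 to 62.2 TPM that were nearly all CD68, while PTPRC, which defines leukocytes, was listed at 0 in every library. The part of these markers in the results was not tested. In bulk RNA, fewer cells of a type and less RNA per cell cannot be told apart.

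The promoters of the 3 members that rose, EPHB3, EFNA4 and EFNB1, and of EPHA2, the most abundant member, show what lies at the starts of genes that did and did not pass the test. RefSeq promoter windows on GRCh38.p14, from 250 bases before to 50 bases after the annotated start, were found for all 10 members, in 12 windows. The windows printed lie at chr3:184561535-184561834 on the plus strand for EPHB3, chr1:155063490-155063789 on the plus strand for EFNA4, chrX:68828771-68829070 on the plus strand for EFNB1 and chr1:16156020-16156319 on the minus strand for EPHA2. Capitals mark GC boxes (GGGCGG on either strand) in the first 3 and the cAMP response element (TGACGTCA) in EPHA2, whose 1 GC box is left in lower case.
EPHB3: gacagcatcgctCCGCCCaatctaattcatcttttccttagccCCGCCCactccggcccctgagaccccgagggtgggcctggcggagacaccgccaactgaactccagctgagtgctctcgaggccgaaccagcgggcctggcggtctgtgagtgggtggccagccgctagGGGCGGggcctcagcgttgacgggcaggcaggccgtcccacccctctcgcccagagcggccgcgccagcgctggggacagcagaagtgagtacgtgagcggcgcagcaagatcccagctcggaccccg
EFNA4: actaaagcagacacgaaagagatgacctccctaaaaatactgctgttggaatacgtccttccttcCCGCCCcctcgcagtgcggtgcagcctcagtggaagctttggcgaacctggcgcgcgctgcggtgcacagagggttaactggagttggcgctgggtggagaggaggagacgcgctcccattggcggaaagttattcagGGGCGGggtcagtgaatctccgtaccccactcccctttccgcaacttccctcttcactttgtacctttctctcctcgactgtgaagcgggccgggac
EFNB1: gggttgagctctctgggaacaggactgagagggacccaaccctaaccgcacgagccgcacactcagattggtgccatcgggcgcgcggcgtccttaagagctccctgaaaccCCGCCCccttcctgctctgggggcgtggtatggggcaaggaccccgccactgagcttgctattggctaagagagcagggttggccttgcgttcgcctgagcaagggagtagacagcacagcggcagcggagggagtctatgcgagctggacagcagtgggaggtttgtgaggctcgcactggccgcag
EPHA2: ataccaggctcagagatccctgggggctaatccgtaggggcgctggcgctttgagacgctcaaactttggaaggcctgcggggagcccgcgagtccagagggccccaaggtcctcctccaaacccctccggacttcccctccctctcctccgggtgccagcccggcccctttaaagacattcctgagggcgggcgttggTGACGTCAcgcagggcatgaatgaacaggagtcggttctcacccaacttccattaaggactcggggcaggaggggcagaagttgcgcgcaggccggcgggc

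All 12 windows of the members held a GC box, the motif that SP and KLF factors bind, and so did 44.9% of 34943 promoters of the same length. The windows are not all separate, since those of EPHB2 start at 22710588 and 22710589 and hold the same GC box. The EPHB3 window held 3, the EFNA4 window 2 and the EFNB1 window 1, and the marked sites do not overlap. Their GC content was 69.0%, 58.3% and 63.7%, beside 64.3% for EPHA2 and a median of 58.7% over all promoters. Over the 12 windows GC content ran from 43.0% in 1 EPHA4 window to 83.0% in EPHB2. Its part in the GC box count was not tested. The cAMP response element, which CREB and ATF factors bind, began 51 bases before the start of EPHA2, was in no other member's window and was in 1.84% of promoters. Searches on both strands for the AP-1 site (TGANTCA), the TCF/LEF site (CTTTGAT) and a kappa B site found none in the members, where 7.72%, 2.63% and 1.91% of promoters hold them. The interferon-stimulated response element, in 3.57% of promoters, was found in 1 of the 2 EPHA4 windows. These motifs were chosen after the windows had been seen, and a match says only that the letters are there.

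In all, 3 members rose in the knockdown libraries and none fell. EPHB3, a receptor for B-type ephrins, was 2.09-fold higher by the ratio of mean TPM, the lipid-anchored ligand gene EFNA4 was 1.45-fold higher and the transmembrane ligand gene EFNB1 was 1.33-fold higher. Of all 15755 genes with a mean of at least 1 TPM, 14.8% were called by limma at an adjusted p under 0.05. Rises were 11.3% of these genes and falls 3.47%, and the 3 rises above were among 10 members. The members were chosen with earlier results of these data known, so the comparison is not a test. Of all 22 ephrin and EPH receptor genes looked up, 15 were tested and 3 (20.0%) rose. Over all genes 1780 rose and 547 fell, a split that was 1012 to 996 after median ratio scaling, under which the same 3 members were called. At an unadjusted p under 0.05, 5 of the 10 members were higher and 0 were lower, beside 22.7% of all tested genes higher and 7.67% lower. The median log2 fold change of TPM + 1 was 0.20 over the 10 members and 0.08 over all genes tested. The libraries of the 2 groups did not overlap for 5 of the 10 members, with knockdown above control in each, beside 36.5% of all genes in either direction and 26.8% with knockdown above. The share of all TPM that came from the mitochondrial genome was 10.7% to 10.9% in control libraries and 7.20% to 7.40% in knockdown libraries. After rescaling without mitochondrial DNA and ribosomal protein genes the same 3 members were called, while 1083 of all genes rose and 865 fell. The part of the mitochondrial share alone was not tested.

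**Figure D1:**
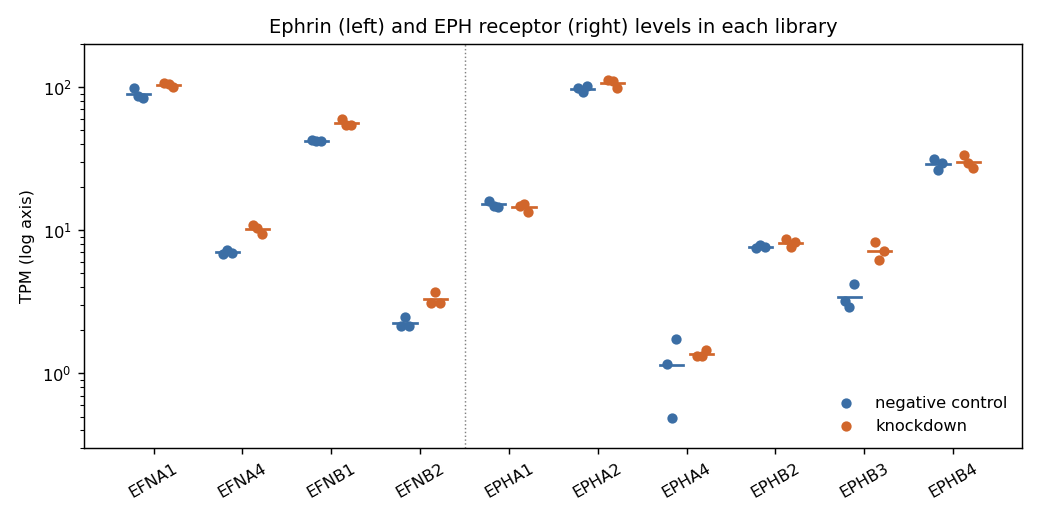
TPM (log axis) of the 4 ephrin and 6 EPH receptor genes, with 1 point per library and a line at the mean of the 3 libraries of a group. The knockdown points lie above the control points for all 4 ephrins and, among the receptors, for EPHB3.

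The members' levels spanned a wide range. Over the 6 libraries the mean was 102 TPM for EPHA2, 96.7 TPM for EFNA1, 49.3 TPM for EFNB1, 29.6 TPM for EPHB4 and 14.8 TPM for EPHA1. The rest followed with 8.60 TPM for EFNA4, 7.94 TPM for EPHB2, 5.31 TPM for EPHB3, 2.78 TPM for EFNB2 and 1.26 TPM for EPHA4. EPHA2 and EFNA1, a receptor and its preferred ligand, had overlapping levels in the control libraries and again in the knockdown libraries. EFNA4 lay below EPHB2 in every control library and above it in every knockdown library. EPHB3 lay below EPHB2 within each of the 6 libraries. The ranges of these receptor genes over libraries were apart in control, at up to 4.21 TPM for EPHB3 and from 7.54 TPM for EPHB2, and overlapped in knockdown.

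Among the ligands, EFNB1 (ENSG00000090776, chromosome X, 68828997 to 68842147, plus strand) encodes ephrin-B1, whose loss in humans causes craniofrontonasal syndrome. It stood at 42.54, 42.07 and 42.30 TPM in control and at 59.45, 54.50 and 54.73 TPM in knockdown libraries. The control libraries were nearly equal, and every knockdown library lay well above them. The means were 42.3 ± 0.235 and 56.2 ± 2.79 TPM (SD, n = 3), and the log2 fold change was 0.40 (SE 0.05, limma adjusted p = 0.00453).

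EFNA4 (ENSG00000243364, chromosome 1, 155063731 to 155069553, plus strand) encodes ephrin-A4. It stood at 6.79, 7.32 and 6.93 TPM in control and at 10.81, 10.38 and 9.34 TPM in knockdown libraries, with no overlap. The means were 7.01 ± 0.275 and 10.2 ± 0.756 TPM, and the log2 fold change was 0.48 (SE 0.08, limma adjusted p = 0.0127). The call was lost without negative control replicate 3 (adjusted p = 0.0529) or without knockdown replicate 2 (adjusted p = 0.0569), in a range of 0.0102 to 0.0569 over 15 alternatives. GENCODE release 29 lists a gene on the same strand, AL691442.1, that shares 189 exon bases with EFNA4 and 853 with its neighbour EFNA3. Its level was 0.420 ± 0.245 TPM in control libraries and 0.880 ± 0.0625 TPM in knockdown libraries, and reads from the shared bases may have been split among the 3 genes.

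In deposited TPM, EFNB2 and EFNA1 were higher in each knockdown library than in any control library but did not pass the test. EFNB2 (ENSG00000125266, chromosome 13, 106489731 to 106535662, minus strand) encodes ephrin-B2, the arterial partner of EPHB4 in blood vessel development and an entry receptor for Nipah virus. It stood at 2.14, 2.46 and 2.13 TPM in control and at 3.11, 3.70 and 3.11 TPM in knockdown libraries (log2 fold change 0.41, SE 0.12, limma adjusted p = 0.0723). It was called with a prior spread that does not follow the mean (adjusted p = 0.0344), in a range of 0.0344 to 0.192 over 14 alternatives. An antisense gene, AL138689.2, shares 1313 bases with its exons and stayed under 0.1 TPM in every library.

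EFNA1 (ENSG00000169242, chromosome 1, 155127460 to 155134857, plus strand) encodes ephrin-A1, first isolated as a product that tumour necrosis factor induces in endothelial cells. It stood at 98.23, 87.24 and 84.09 TPM in control and at 106.48, 104.38 and 99.87 TPM in knockdown libraries. Negative control replicate 1 was within 2 TPM of the lowest knockdown library. The means were 89.9 ± 7.42 and 104 ± 3.38 TPM (log2 fold change 0.21, SE 0.07, limma adjusted p = 0.0896). Without negative control replicate 1 it was called (adjusted p = 0.0387), in a range of 0.0387 to 0.358 over 15 alternatives. The highest was after median ratio scaling, where the log2 fold change was 0.11, so the difference in EFNA1 depends on how libraries are scaled.

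Among the receptors, EPHB3 (ENSG00000182580, chromosome 3, 184561784 to 184582409, plus strand) had a log2 fold change of 0.88, the highest of the 10 members. In the mouse intestine EPHB3 acts with EPHB2 to position epithelial cells along a gradient of B-type ephrins. It stood at 3.22, 2.89 and 4.21 TPM in control and at 8.24, 6.17 and 7.11 TPM in knockdown libraries, with no overlap. The means were 3.44 ± 0.687 and 7.17 ± 1.04 TPM (SE of the log2 fold change 0.15, limma adjusted p = 0.0117). It was called in all 15 alternatives, with an adjusted p of 0.0107 to 0.0470.

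The other EPHB receptors did not pass the test. EPHB4 (ENSG00000196411, chromosome 7, 100802565 to 100827521, minus strand), the venous partner of ephrin-B2, stood at 31.47, 26.26 and 29.49 TPM in control and at 33.74, 29.55 and 27.32 TPM in knockdown libraries (log2 fold change 0.05, 95% confidence interval −0.18 to 0.29, limma adjusted p = 0.768). EPHB2 (ENSG00000133216, chromosome 1, 22710839 to 22921500, plus strand) stood at 7.54, 7.85 and 7.66 TPM and at 8.73, 7.59 and 8.26 TPM (log2 fold change 0.08, interval −0.11 to 0.27, limma adjusted p = 0.549). Both had overlapping groups, and their intervals lie below that of EPHB3, which ran from 0.53 to 1.24, but the difference between receptors was not tested. EPHB4 shares 69 exon bases with SLC12A9 on the other strand, which averaged 11.5 TPM in control libraries and 11.6 TPM in knockdown libraries. The signs of EPHB4 and EPHB2 turned negative after median ratio scaling, at −0.039 and −0.0026.

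Receptors of the A class were called neither up nor down. EPHA2 (ENSG00000142627, chromosome 1, 16124337 to 16156087, minus strand), a receptor often abundant in carcinoma cells, stood at 98.41, 92.08 and 101.56 TPM in control and at 111.44, 109.81 and 99.06 TPM in knockdown libraries. Knockdown replicate 3 lay within the control range (log2 fold change 0.13, interval −0.02 to 0.28, limma adjusted p = 0.219). EPHA1 (ENSG00000146904, chromosome 7, 143390289 to 143408892, minus strand), the founding receptor of the family, stood at 16.12, 14.79 and 14.54 TPM and at 14.67, 15.27 and 13.44 TPM (log2 fold change −0.06, interval −0.25 to 0.12, limma adjusted p = 0.62). Its exons share 82 bases with ZYX on the other strand, a gene at 107 ± 3.61 TPM in control libraries and 124 ± 8.87 TPM in knockdown libraries, and the sources used here do not say whether strand was kept. EPHA4 (ENSG00000116106, chromosome 2, 221418027 to 221574202, minus strand), which binds ephrins of both types, stood near the filter at 1.17, 0.49 and 1.75 TPM and at 1.33, 1.33 and 1.46 TPM. Its interval ran from −0.39 to 0.78, and without negative control replicate 2 its log2 fold change of 0.20 became −0.04.

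**Figure D2:**
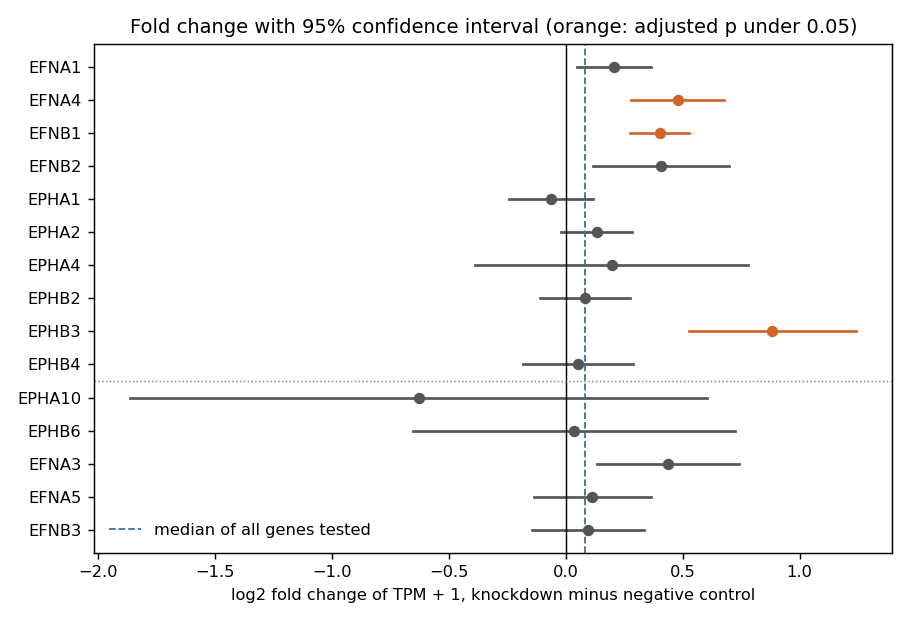
Log2 fold change of TPM + 1, knockdown minus negative control, with the 95% confidence interval of the limma fit, for the 10 members above the dotted line and 5 other family genes below it. Orange marks the called genes EPHB3, EFNA4 and EFNB1, and the dashed line is the median of all 15755 genes tested, 0.08.

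The family has 22 genes in the lists used here, and 12 of them are not members. Of these 12, 5 passed the filter of a mean of 1 TPM, and 0 rose or fell by limma, with 1 of the 5 at an unadjusted p under 0.05, beside 30.4% of all tested genes in either direction. That gene was EFNA3, an A-type ephrin, at 9.23, 8.06 and 9.36 TPM in control and 10.67, 11.83 and 14.87 TPM in knockdown libraries, with no overlap (log2 fold change 0.44, SE 0.13, limma adjusted p = 0.0666). With array weights it was called (adjusted p = 0.0471), in a range of 0.0471 to 0.182 over 15 alternatives. EFNA5, another A-type ephrin, stood at 11.4 ± 0.748 and 12.5 ± 1.57 TPM, and EFNB3, the remaining B-type ephrin, at 4.37 ± 0.377 and 4.73 ± 0.255 TPM. EPHB6, a receptor without kinase activity, stood at 2.39 ± 0.596 and 2.60 ± 1.23 TPM.

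EPHA10, the other receptor that lacks kinase activity, was high in 1 library. It stood at 9.71, 1.78 and 1.75 TPM in control and at 1.72, 2.27 and 1.49 TPM in knockdown libraries, so negative control replicate 1 stood alone (log2 fold change −0.63, SE 0.52, limma adjusted p = 0.462). Without that library the log2 fold change was 0.02. EPHA3, EPHA6, EPHA8, EPHB1 and EFNA2 were listed above 0 in some libraries but under the filter, and EPHA5 and EPHA7 were listed at 0 in all 6. EPHB1 was at most 0.05 TPM in 5 libraries and at 0.70 TPM in knockdown replicate 3.

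Summed over the 22 genes, ligand messages were higher relative to receptor messages in the knockdown libraries. The ratio of summed ephrin TPM to summed receptor TPM was 1.03, 1.09 and 0.984 in control and 1.14, 1.17 and 1.21 in knockdown libraries, with no overlap. Without EPHA10 it was 1.09, 1.10 and 0.994 and 1.15, 1.18 and 1.22. A ratio within a library does not change where each library is scaled by a single factor. Quantile normalization can change it, and the ratio was not computed under it. No p is given because the sums are made of the members. This ratio was not among the planned results, and EFNA1, EFNB1 and EPHA2 make up most of the sums. It therefore does not show a shift across the family.

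By class, B-type ephrins summed to 48.79, 48.72 and 49.23 TPM in control and to 67.54, 62.67 and 62.59 TPM in knockdown libraries. A-type ephrins summed to 126.13, 113.20 and 112.21 TPM and to 141.18, 140.19 and 134.76 TPM. Neither class overlapped between the groups in deposited TPM, but after median ratio scaling the A-type ephrins did, at 116 to 131 in control and 130 to 139 in knockdown libraries, and the B-type ephrins did not. EPHA receptors summed to 118 ± 8.28 and 125 ± 7.82 TPM and overlapped. EPHB receptors summed to 42.6 ± 2.81 and 48.4 ± 4.69 TPM, with 44.42 TPM in the highest control and 44.58 TPM in the lowest knockdown library. After median ratio scaling the EPHB sums overlapped, at 40.4 to 45.8 in control and 42.4 to 52.8 in knockdown libraries.

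**Figure D3:**
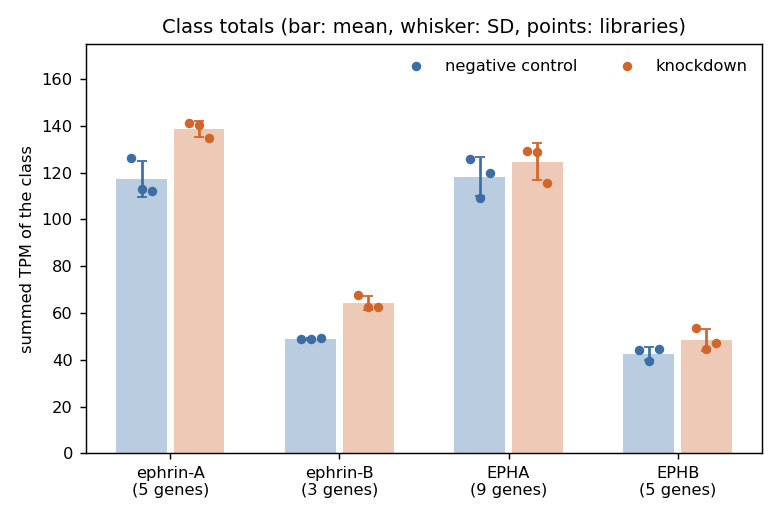
Summed TPM of the A-type ephrins (5 genes), B-type ephrins (3 genes), EPHA receptors (9 genes) and EPHB receptors (5 genes), with bars at the mean, whiskers at the SD and 1 point per library. The B-type ephrins lie at 48.7 to 49.2 TPM in control and 62.6 to 67.5 TPM in knockdown libraries.

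One gene supplied most of the message of each class in every library. EPHA2 supplied 78.3% to 84.8% of EPHA message in control and 85.2% to 86.1% in knockdown libraries, the lowest share being in the library with high EPHA10. EFNA1 supplied 74.9% to 77.9% and 74.1% to 75.4% of A-type ephrin message, and EFNB1 85.9% to 87.2% and 87.0% to 88.0% of B-type ephrin message. EPHB4 was the main EPHB receptor throughout, at 66.4% to 71.4% and 58.1% to 66.3%. EPHB3 made up 7.31%, 7.34% and 9.48% of EPHB message in control and 15.4%, 13.8% and 15.1% in knockdown libraries.

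Ratios between pairs of members, chosen after their values were seen and so given without a test, restate the differences above within libraries. They are not separate evidence. The ratio of EPHB3 to EPHB4 was 0.102, 0.110 and 0.143 in control and 0.244, 0.209 and 0.260 in knockdown libraries. EFNB1 over EPHB4 was 1.46 ± 0.128 in control and 1.87 ± 0.123 in knockdown libraries, and EFNA4 over EFNA1 was 0.0785 ± 0.00814 and 0.0982 ± 0.00415, neither with overlap. EFNA1 over EPHA2 was 0.925 ± 0.0874 and 0.971 ± 0.0319 and overlapped, as did EFNB2 over EFNB1 at 0.0530 ± 0.00470 and 0.0590 ± 0.00802. EFNA4 over EFNA3, a family gene outside the members, also overlapped, at 0.795 ± 0.0983 in control and 0.840 ± 0.195 in knockdown libraries.

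EFNA4, EFNA3 and EFNA1 lie next to each other on chromosome 1, and only EFNA4 was called. In deposited TPM all 3 had knockdown above control in every library, as did 26.8% of all tested genes. So did SLC50A1 and KRTCAP2 after the cluster, whose log2 fold changes were above that of EFNA1. The 3 tested genes before the cluster did not pass the test: ZBTB7B at a log2 fold change of 0.06, DCST1-AS1 at −0.01 and ADAM15, a membrane metalloprotease gene, at 0.04. After the cluster, the sugar transporter gene SLC50A1 stood at 62.6 ± 3.83 and 74.6 ± 4.64 TPM (log2 fold change 0.25, limma adjusted p = 0.0548) and DPM3, a subunit of dolichol-phosphate mannose synthase, at 64.1 ± 6.65 and 67.2 ± 7.29 TPM. KRTCAP2 rose from 130 ± 5.60 to 156 ± 5.03 TPM (log2 fold change 0.26, SE 0.05, limma adjusted p = 0.016), but after median ratio scaling it was not called, at 0.17, nor after quantile normalization, after rescaling without mitochondrial DNA and ribosomal protein genes or with a prior spread that does not follow the mean. Leaving out negative control replicate 2, negative control replicate 3 or knockdown replicate 3 also ended the call (adjusted p = 0.0619, 0.0648 and 0.0506), in a range of 0.0118 to 0.0958 over 15 alternatives.

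**Figure D4:**
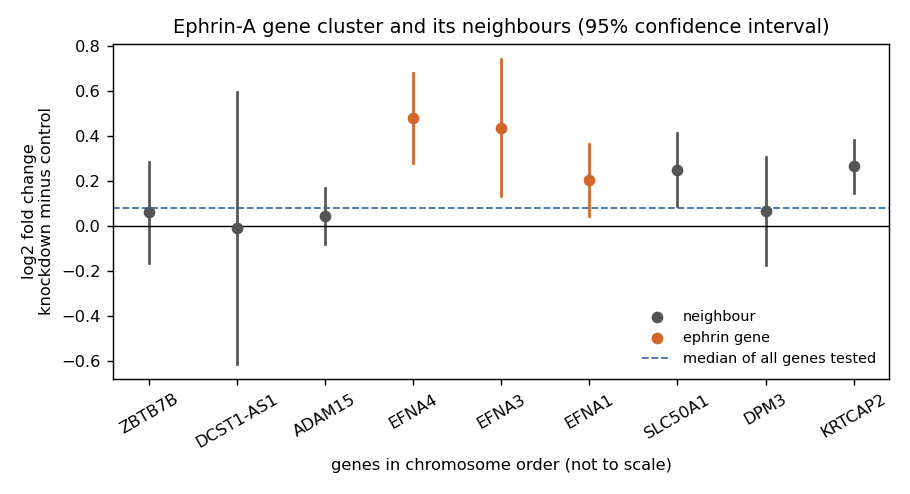
Log2 fold change of TPM + 1 with the 95% confidence interval for EFNA4, EFNA3 and EFNA1 (orange) and the 3 nearest tested genes on each side (grey), in chromosome order and not to scale. The 3 ephrin genes stand at 0.48, 0.44 and 0.21, the genes before them at 0.06, −0.01 and 0.04, and the genes after them, SLC50A1, DPM3 and KRTCAP2, at 0.25, 0.07 and 0.26.

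Of 77 genes in 6 lists of partners, 69 were tested, 3 rose and 2 fell, which is 4.35% and 2.90% beside 11.3% and 3.47% of all genes. The median log2 fold change of the 69 was 0.09, beside 0.08 over all genes. By list the median was lowest for phosphatases and turnover genes, at −0.08, and highest for partners of B-type ephrins, at 0.20. Among 20 tested adaptors and exchange factors of forward signalling, 3 rose and 1 fell. SHC1, an adaptor for phosphotyrosine, fell from 161 ± 4.20 to 137 ± 3.14 TPM (log2 fold change −0.23, SE 0.04, limma adjusted p = 0.0157). That call was lost without negative control replicate 2, negative control replicate 3 or knockdown replicate 2 (adjusted p = 0.0548, 0.0618 and 0.0567), and with a prior spread that does not follow the mean (adjusted p = 0.0567), in a range of 0.00625 to 0.0618 over 15 alternatives.

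GRB2, which links receptors to RAS, rose from 93.5 ± 2.94 to 112 ± 4.89 TPM (log2 fold change 0.26, limma adjusted p = 0.0178). The adaptor gene CRK rose from 20.7 ± 1.11 to 26.2 ± 1.13 TPM (log2 fold change 0.33, limma adjusted p = 0.02), and VAV2, a guanine nucleotide exchange factor, from 21.6 ± 0.269 to 25.7 ± 0.321 TPM (log2 fold change 0.24, limma adjusted p = 0.0239). Median ratio scaling, quantile normalization and rescaling without mitochondrial DNA and ribosomal protein genes each ended all 3 calls, and the first left differences of 0.17, 0.24 and 0.15 on the log2 scale. Leaving out any 1 library ended the call of VAV2 (adjusted p = 0.0552 to 0.0816). For GRB2 the call ended with a prior spread that does not follow the mean (adjusted p = 0.0505) and without negative control replicate 1 or 2 or knockdown replicate 2 or 3 (adjusted p = 0.0542 to 0.0661), and for CRK without negative control replicate 1 or 3 or knockdown replicate 2 or 3 (adjusted p = 0.0626 to 0.0721). Over the 15 alternatives the adjusted p ran from 0.0117 to 0.0661 for GRB2, from 0.0131 to 0.0721 for CRK and from 0.0177 to 0.106 for VAV2, and the replicate block ended the calls of CRK and VAV2 (adjusted p = 0.0564 and 0.0659).

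Of 8 tested phosphatases and turnover genes, 1 fell and 0 rose by limma, with 1 higher and 1 lower at an unadjusted p under 0.05, beside 22.7% and 7.67% of all tested genes. Knockdown lay below control without overlap for 5 of the 8 and above for 2, beside 1522 and 4224 of all 15755 tested genes. The gene that fell was PTPRF, which encodes the receptor phosphatase LAR, from 186 ± 8.29 to 147 ± 5.42 TPM (log2 fold change −0.34, SE 0.05, limma adjusted p = 0.00748). It was called in all 15 alternatives. In 3 further lists limma called 0 genes. At an unadjusted p under 0.05, 1 of 9 cytoplasmic kinases was higher, 1 of 10 partners of B-type ephrins was higher and 1 was lower, and 3 of 10 shedding proteases were higher, against the same background of 22.7% higher and 7.67% lower.

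Over the 6 libraries, the tested genes whose pattern was most like that of EPHB3 were ODF3B, IFITM3 and IFITM1, by the root mean square distance between centred profiles of log2(TPM + 1), which was 0.0619, 0.0880 and 0.0884. IFITM3 and IFITM1, interferon-induced proteins that restrict virus entry, stood at 2742 ± 209 and 1906 ± 195 TPM in control and at 5151 ± 417 and 3604 ± 355 TPM in knockdown libraries. ODF3B stood at 11.1 ± 1.30 and 21.2 ± 2.03 TPM. The log2 fold changes of ODF3B, IFITM3 and IFITM1 were 0.87, 0.91 and 0.92, beside 0.88 for EPHB3. Genes picked for a profile near that of EPHB3 in the same libraries have a similar fold change by selection. The likeness is therefore not separate evidence, and a link between EPHB3 and interferon was not tested.

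**Figure D5:**
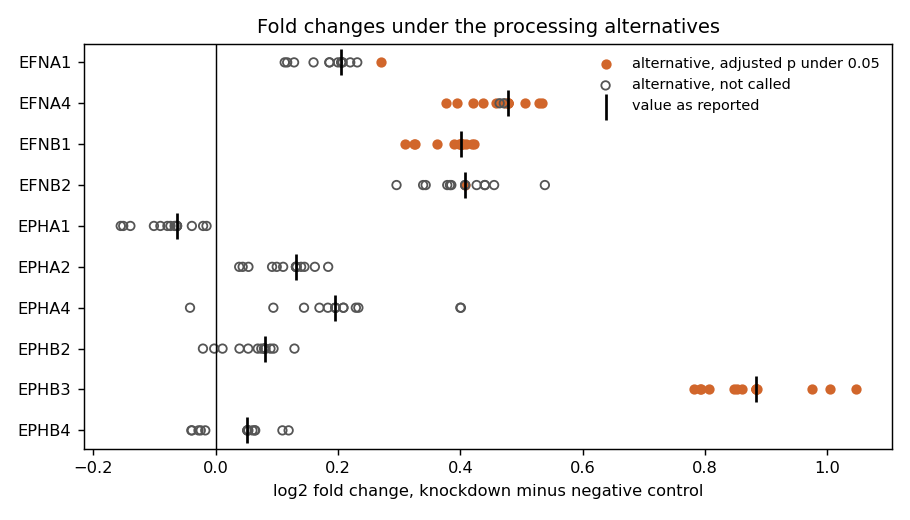
Log2 fold change of each member under the processing alternatives (points, filled orange where the adjusted p was under 0.05 and open where it was not) and as reported (vertical mark). EPHB3 and EFNB1 are filled in all 15, EFNA4 in 13, and EFNA1 and EFNB2 in 1 each.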

How the data were processed

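Per the labels' protocols, polyadenylated RNA was selected, primed with random hexamers and sequenced as paired reads. The authors deposited 1 table of TPM values with a listed gene length, which was not used in a test. Tools named in the submitters' processing notes are fastp, HISAT and RSEM, with no versions. Those notes also name GRCm38.p5, a mouse build, although 58883 of 60027 gene IDs are human Ensembl IDs, so coordinates were taken from GENCODE 29 on GRCh38 (58610 IDs found) and promoters from RefSeq on GRCh38.p14. TPM keeps no depth, so precision rests on the spread between libraries. Columns were matched to samples by group and number.

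Genes with a mean of at least 1 TPM (15755 of 30849 above 0) entered a limma fit (limma 3.58.1 under R 4.3.3) of log2(TPM + 1) without covariates, in which the prior spread followed the mean. Two-sided p-values were adjusted over all tested genes (Benjamini-Hochberg), with calls under 0.05. The fit was first tested on simulated data. Fold changes on this scale understate low genes. The text names all members, family genes above the filter, up to 4 called genes per partner list, the neighbours of the ephrin-A cluster and the 3 genes most like the called member with the largest change. Pairs for ratios and motifs fell outside this rule. The result of 1 partner list is not reported here. Members and lists were chosen with earlier results of these data known. The 15 alternatives changed the pseudocount, filter, scaling, prior, weights or block, or left out each library in turn.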

Additional observations from a re-analysis of the deposited data

How the results depend on the processing

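EPHB3 and EFNB1 were called as rises in all 15 alternatives, with log2 fold changes of 0.78 to 1.05 and 0.31 to 0.42, and EFNA4 in 13, with 0.38 to 0.53. The number of members that rose was 2 to 4, and 0 fell in any. Counts over all genes moved more. Rises and falls numbered 1136 and 339 without a filter, 1012 and 996 after median ratio scaling, 1001 and 980 with quantile-normalized values, and 1083 and 865 after rescaling without mitochondrial DNA and ribosomal protein genes. Leaving out 1 library gave 867 to 1267 rises and 246 to 366 falls, with fewer samples. The replicate block gave 1123 rises and 343 falls. The numbers were not taken to pair the libraries. Same-numbered libraries had correlations of deviations of 0.02, −0.01 and 0.04, and 3 of 6 libraries correlated best with their own number. With so few libraries, these values cannot show whether the libraries were prepared in pairs.

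Signs turned only for genes that were not called. Under median ratio scaling, quantile normalization and rescaling, in that order, the log2 fold change was −0.039, −0.040 and −0.025 for EPHB4, −0.028, −0.086 and −0.027 for EPHB6, −0.029, −0.029 and −0.015 for ZBTB7B, −0.048, −0.034 and −0.033 for ADAM15 and −0.026, −0.019 and −0.012 for DPM3. For EPHB2 it was −0.0026 and −0.021 in the first 2 of these, and for EFNB3 −0.013 after quantile normalization. DCST1-AS1 turned to 0.034 with a pseudocount of 0.1 and, like EPHB6 at −0.123, turned with array weights, to 0.0077. Leaving out 1 library gave ranges of −0.0421 to 0.40 for EPHA4, −0.0282 to 0.12 for EPHB4, −0.96 to 0.0224 for EPHA10, −0.18 to 0.34 for EPHB6, −0.00184 to 0.16 for ZBTB7B, −0.28 to 0.15 for DCST1-AS1 and −0.0196 to 0.15 for DPM3. The cause was not tested. TPM carries no depth, so no limit of detection can be given for EPHA5 and EPHA7.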
